A study of Mus musculus with 12 samples.

Results

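Ctla4, Tnfrsf9, Cd28, Icos, Cd80, Cd86, Tnfrsf4, Tnfrsf18, Pdcd1 and Cd274 are 10 genes of T cell costimulation and its checkpoints, out of 19921 gene symbols in each count table. All 10 symbols were present in all 12 tables. The genes were chosen by symbol and from their counts in these same libraries: Ctla4 and Tnfrsf9 were measurable and stood higher in tumours given both treatments, and the other 8 are their relatives and binding partners. Comparisons that involve the doubly treated libraries are therefore given for the 10 genes as levels, fold changes and errors with no test.

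The samples were BALB/c wild-type mice with subcutaneous tumours of Colon26, a mouse colon carcinoma line, started from 200000 cells. The 4 groups had 3 mice each: minP1 plus anti-PD-L1 (called the combination below), anti-PD-L1 alone, minP1 alone, and control. Anti-PD-L1 antibody was injected at 200 µg on days 4 and 8, and minP1, an immunostimulatory peptide derived from the nuclear protein HMGN1, at 0.08 µg on day 9. Tumours were taken on day 10, digested, and depleted of tumour cells and dead cells on Percoll, and all remaining cells were profiled by sequencing tags from the 5′ ends of polyadenylated transcripts. The labels do not say what the control mice received, and for the combination the peptide appears in the sample titles alone.

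A T cell responds fully when its antigen receptor and a costimulatory receptor are engaged together. CD28 gives that second signal when it binds CD80 or CD86 on an antigen-presenting cell. CTLA-4 binds the same ligands more tightly and restrains the response, and PD-1 restrains it when it binds PD-L1, the protein encoded by Cd274. ICOS is a relative of CD28, while 4-1BB (Tnfrsf9), OX40 (Tnfrsf4) and GITR (Tnfrsf18) are costimulatory receptors of the tumour necrosis factor receptor family that appear or increase on activated T cells. CTLA-4, OX40 and GITR are also typical of regulatory T cells in tumours.

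The libraries were shallow, which limits what can be said of most of these genes. Totals were 133917 to 196109 counts in the combination, 188008 to 322493 in anti-PD-L1, 276203 to 322613 in minP1 and 285753 to 473273 in control, so 3 counts corresponded to between 6.34 and 22.4 CPM (counts scaled to a common library size) in a library. The 10 genes together received 430 counts over the 12 libraries, 58.4% of them from Ctla4 and Tnfrsf9. Those 2 genes had counts in all 12 libraries and were the only members to pass the filter on low counts, which left 5443 genes for testing. Library composition also differed between groups. The noncoding RNA Bc1 and the gene Lrrc17 together took 2.49% to 6.32% of counts in the combination, 2.35% to 4.42% in anti-PD-L1, 1.5% to 4.17% in minP1 and 1.36% to 2.34% in control. On the first principal component, which held 49.7% of the variance, minP1 replicate 2 (-0.21) stood apart from its group (-22.45 and -24.45), as did anti-PD-L1 replicate 1 (17.31, against -5.03 and -8.39). The combination libraries were spread as well, at 59.75, 46 and 30.92. Combination replicate 3 stood apart on the second component (32.59, against -4.02 and -4.27).

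**Figure D1:**
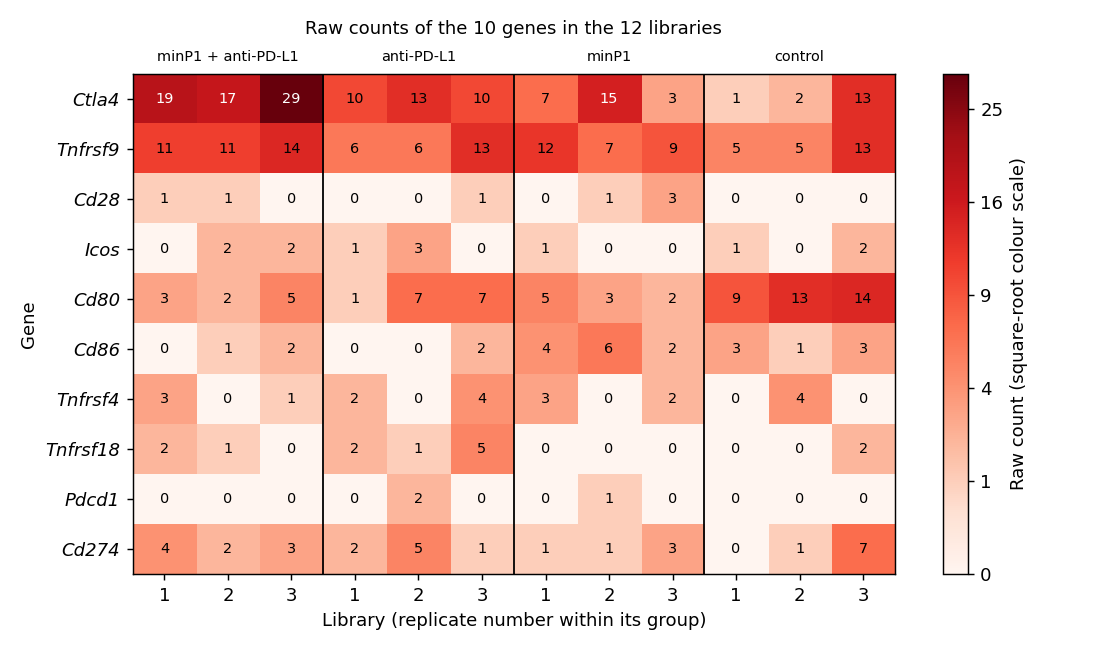
Raw counts of the 10 genes (rows) in the 12 libraries (columns, grouped by treatment, numbered by replicate), with colour on a square-root scale. Ctla4 reached 17 to 29 counts in the combination and 1, 2 and 13 in control, whereas Pdcd1 had 3 counts in all 12 libraries.

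Ctla4 encodes the inhibitory receptor CTLA-4 (chromosome 1, 60887000 to 60915832, plus strand, GRCm38, protein-coding). It had 19, 17 and 29 raw counts in the 3 combination libraries, 10, 13 and 10 in anti-PD-L1, 7, 15 and 3 in minP1, and 1, 2 and 13 in control. The combination libraries thus held the most counts although they were the shallowest. After scaling by the trimmed mean of M-values (TMM), its level was 151, 94.9 and 150.1 CPM in the combination, 56.5, 44.4 and 31.9 CPM in anti-PD-L1, 24.1, 50.8 and 9.02 CPM in minP1, and 2.63, 6.57 and 26.5 CPM in control. Every combination library lay above every library of the other groups. Group means were, from high to low, combination (132 ± 32 CPM), anti-PD-L1 (44.3 ± 12.3), minP1 (28.0 ± 21.2) and control (11.9 ± 12.8; SD, n = 3 each). The anti-PD-L1 and minP1 libraries overlapped, as did minP1 and control.

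Tnfrsf9 encodes 4-1BB (chromosome 4, 150914562 to 150946102, plus strand, protein-coding), whose engagement supports survival and effector function of activated T cells. Raw counts were 11, 11 and 14 in the combination, 6, 6 and 13 in anti-PD-L1, 12, 7 and 9 in minP1, and 5, 5 and 13 in control. Its level was 87.2, 61.4 and 72.5 CPM in the combination, 33.9, 20.5 and 41.5 in anti-PD-L1, 41.3, 23.7 and 27.1 in minP1, and 13.1, 16.4 and 26.5 in control. As with Ctla4, each combination library exceeded all 9 others, while the other 3 groups overlapped one another. The means were 73.7 ± 12.9 CPM in the combination, 32.0 ± 10.6 in anti-PD-L1, 30.7 ± 9.3 in minP1 and 18.7 ± 7.0 in control (SD, n = 3 each). For both genes control replicate 3, the deepest library, was the highest of the controls.

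**Figure D2:**
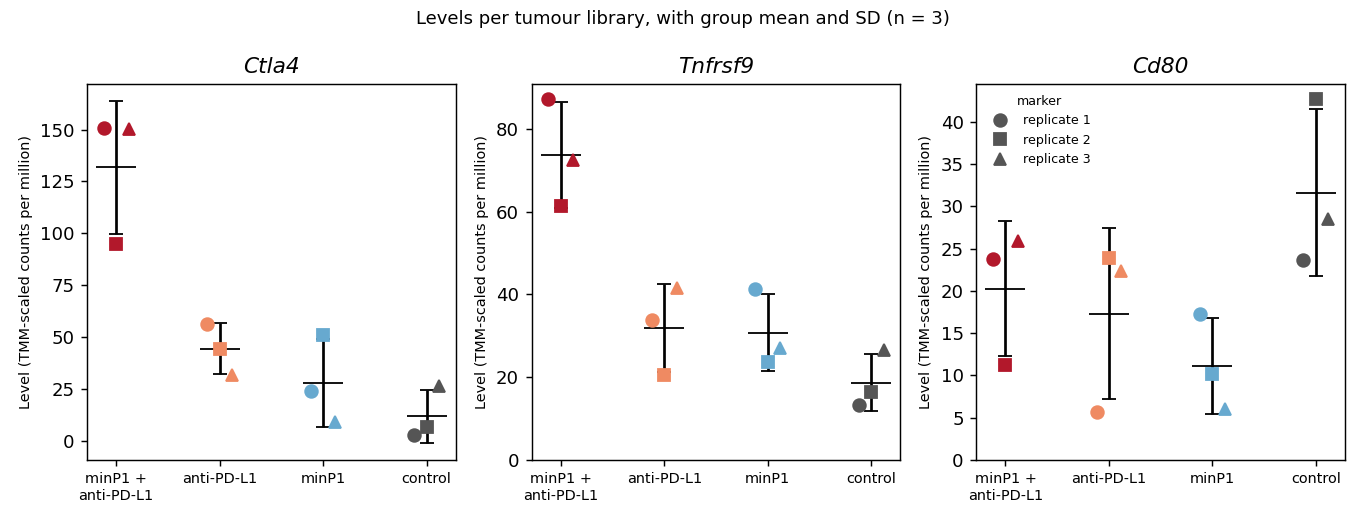
Levels of Ctla4, Tnfrsf9 and Cd80 in TMM-scaled CPM per library (symbols by replicate), with the group mean and SD (n = 3). The combination libraries lie at 94.9 to 151 CPM for Ctla4 and 61.4 to 87.2 CPM for Tnfrsf9, above all others, while control holds the highest Cd80 level.

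Since the assay reads transcript starts, the sequence just before the annotated starts of these 2 genes is shown, from RefSeq promoter records of GRCm38.p6 on the plus strand: 250 bases at chr1:60908775-60909024 for Ctla4 and at chr4:150919905-150920154 for Tnfrsf9. In each gene 1 GENCODE transcript, of 3 for Ctla4 and of 9 for Tnfrsf9, begins directly after the printed bases. RefSeq has 1 start record for Ctla4 and 2 for Tnfrsf9, of which the first is printed. Capitals mark GGAAA, the core of sites bound by NFAT factors, which are activated by T cell receptor signalling, on either strand.
Ctla4: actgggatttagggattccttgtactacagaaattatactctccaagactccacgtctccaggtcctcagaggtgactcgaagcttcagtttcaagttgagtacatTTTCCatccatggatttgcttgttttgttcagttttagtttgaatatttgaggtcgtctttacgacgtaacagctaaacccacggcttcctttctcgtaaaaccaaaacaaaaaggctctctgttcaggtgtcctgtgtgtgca
Tnfrsf9: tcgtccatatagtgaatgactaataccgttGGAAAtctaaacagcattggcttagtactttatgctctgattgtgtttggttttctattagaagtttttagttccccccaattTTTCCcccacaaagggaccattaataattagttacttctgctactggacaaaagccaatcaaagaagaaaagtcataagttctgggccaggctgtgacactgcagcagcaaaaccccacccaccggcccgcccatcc
The core occurs once in the Ctla4 window, on the reverse strand, and at 2 places in the Tnfrsf9 window, and 55.6% of 32851 mouse promoter windows of this length hold it. Neither window holds the AP-1 letters TGANTCA (6.75% of windows do) or the TATA box letters TATAAA (12.4%), on either strand. The tables give 1 count per symbol, so which start the tags came from is not known.

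Set against control, the combination had the largest fold changes. Ctla4 differed by a log2 fold change of 3.24 ± 0.53 (SE) and Tnfrsf9 by 1.87 ± 0.43 in the edgeR fit of all 12 libraries. Pooled over libraries, Ctla4 had 65 counts in the combination and 16 in control, a 9.09-fold ratio of CPM with a 95% exact counting interval of 5.20 to 16.8. Tnfrsf9 had 36 and 23 counts, a ratio of 3.50 (2.02 to 6.19). Among all genes tested, 21.2% had every combination library above every control. Control replicate 3 held 13 of the 16 control counts of Ctla4, and without it the Ctla4 difference was 4.72 ± 0.66 and that of Tnfrsf9 2.24 ± 0.52.

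Both genes also stood higher in the combination than in either single treatment. The Ctla4 difference was 1.60 ± 0.47 against anti-PD-L1 and 2.22 ± 0.49 against minP1. Leaving out minP1 replicate 2 made the second value 3.0 ± 0.55. For Tnfrsf9 the values were 1.18 ± 0.43 against anti-PD-L1 and 1.22 ± 0.42 against minP1. Groups without overlap and with the combination higher were found for 12.1% of all genes tested against anti-PD-L1 and for 16.8% against minP1. The interaction, which is the excess of the combination over the sum of both single changes on the log2 scale, was 0.59 ± 0.81 for Ctla4 and 0.54 ± 0.64 for Tnfrsf9, smaller than its SE in both. Without control replicate 3 the Ctla4 interaction was -0.92 ± 0.89. Leaving out minP1 replicate 2 gave 1.35 ± 0.82.

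The single treatments were tested against control, in comparisons that hold no combination library but share the control values on which the genes were in part chosen. Tnfrsf9 passed the filter on low counts through its combination libraries: at least 3 libraries had to reach 34.8 CPM, and outside the combination 2 did, so its p-values are given from the fit of all symbols without a filter. Neither gene passed in anti-PD-L1 or in minP1 against control. In anti-PD-L1 tumours Ctla4 lay above every control in 3 of 3 libraries, with a log2 fold change of 1.64 ± 0.58 (adjusted p = 0.136, edgeR quasi-likelihood test), where 11.8% of all genes tested had anti-PD-L1 above control without overlap and 1.12% were called. Without control replicate 3 the difference was 3.13 ± 0.74 (adjusted p = 0.0314, edgeR). Without control replicate 1 it was 1.2 ± 0.57 and without control replicate 2 1.43 ± 0.62, which did not pass (adjusted p = 0.249 and 0.314, edgeR). Tnfrsf9 differed by 0.72 ± 0.50 in the same comparison (adjusted p = 0.808, edgeR, no filter). In minP1 tumours the differences were 1.02 ± 0.61 for Ctla4 (adjusted p = 0.79, edgeR) and 0.65 ± 0.49 for Tnfrsf9 (adjusted p = 0.859, edgeR, no filter). The Ctla4 value was 2.51 ± 0.78 without control replicate 3 and 0.28 ± 0.69 without minP1 replicate 2, which held 15 of the 25 minP1 counts. No gene was called in minP1 against control (0% of 5443), with 383 at an unadjusted p under 0.05 and 1 called by DESeq2. The 2 single treatments share the control libraries.

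**Figure D3:**
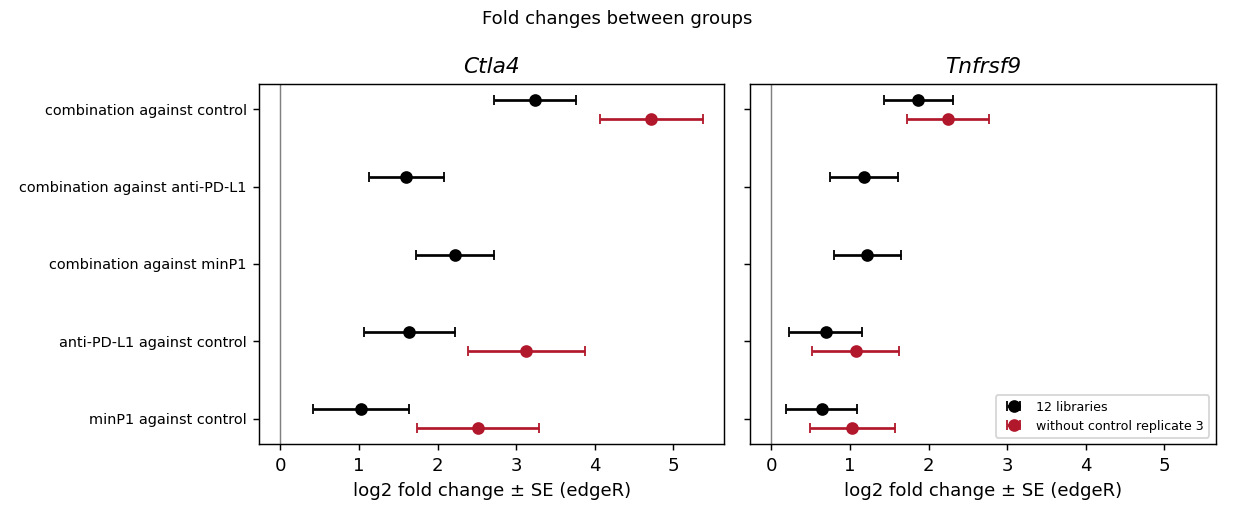
Log2 fold changes (x axis, with SE bars, edgeR) of Ctla4 and Tnfrsf9 in 5 comparisons (y axis), from all 12 libraries in black and, where control is involved, without control replicate 3 in red. All points lie right of 0, and leaving out control replicate 3 puts Ctla4 against control at 4.72 (3.24 with it) in the combination, 3.13 (1.64) in anti-PD-L1 and 2.51 (1.02) in minP1.

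Because library depth differed with treatment, all libraries were also thinned to 133917 counts, the smallest total, in 1 random draw. No other draw was made, so how far these values vary between draws is not known. Ctla4 then kept 19, 12 and 20 counts in the combination, 8, 6 and 5 in anti-PD-L1, 3, 6 and 0 in minP1, and 0, 1 and 7 in control. Tnfrsf9 kept 11, 9 and 11 counts in the combination, 6, 3 and 8 in anti-PD-L1, 5, 2 and 6 in minP1, and 1, 2 and 3 in control. In that draw the combination stayed above all other libraries for both genes at equal depth, for Tnfrsf9 with 9 counts at the lowest against 8. The fitted Ctla4 differences from control were then 2.64 ± 0.69 in the combination, 1.21 ± 0.79 in anti-PD-L1 (adjusted p = 0.428, edgeR) and 0.16 ± 0.91 in minP1 (adjusted p = 0.988, edgeR). Tnfrsf9 fell below the filter at that depth. With the level of Bc1 and Lrrc17 as a covariate, the combination differed from control by 3.15 ± 0.66 for Ctla4 and 2.06 ± 0.59 for Tnfrsf9.

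CD28 and ICOS, the activating relatives of CTLA-4, were barely detected, although their genes lie on either side of Ctla4. Cd28 (chromosome 1, 60716800 to 60773359) and Icos (chromosome 1, 60977927 to 61000320) flank it on the same strand with no other protein-coding gene between. Cd28 had 1, 1 and 0 counts in the combination, 0, 0 and 1 in anti-PD-L1, 0, 1 and 3 in minP1, and none in control, where 0 of 1134230 counts allows up to 2.65 CPM. Icos had 0, 2 and 2 counts in the combination, 1, 3 and 0 in anti-PD-L1, 1, 0 and 0 in minP1, and 1, 0 and 2 in control. Neither showed groups without overlap in any comparison. Over the 12 libraries the 3 neighbours thus received 7, 139 and 12 counts in chromosomal order.

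The ligands CD80 and CD86 bind both CD28 and CTLA-4. Cd80 (chromosome 16, 38455561 to 38496335, plus strand) had 3, 2 and 5 counts in the combination, 1, 7 and 7 in anti-PD-L1, 5, 3 and 2 in minP1, and 9, 13 and 14 in control. Its mean level was 20.3 ± 8.0 CPM in the combination, 17.3 ± 10.1 in anti-PD-L1, 11.1 ± 5.7 in minP1 and 31.6 ± 9.9 in control (SD, n = 3 each). In minP1 every library lay below every control, a pattern shown in that direction by 6.56% of the genes that passed the filter, and the difference in a fit without the filter was -1.46 ± 0.58, which did not pass (adjusted p = 0.849, edgeR; unadjusted p = 0.0115). Pooled over libraries, the minP1 level of Cd80 was 0.346 times that of control (counting limits 0.153 and 0.712). In the combination it was 0.622 times that of control (0.275 to 1.28), with libraries that overlapped. As a description, since the denominator holds Ctla4, which was chosen for its level in the combination, Cd80 made up 13.3% of the summed Cd80 and Ctla4 counts in the combination (10 of 75; 95% Wilson interval 7.41% to 22.8%), 31.2% in anti-PD-L1 (15 of 48; 19.9% to 45.3%), 28.6% in minP1 (10 of 35; 16.3% to 45.0%) and 69.2% in control (36 of 52; 55.7% to 80.1%). By library, the share in control was 90.0%, 86.7% and 51.9%, against 13.6%, 10.53% and 14.7% in the combination.

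Cd86 (chromosome 16, 36603869 to 36666081, minus strand), the other ligand of CD28 and CTLA-4, had 0, 1 and 2 counts in the combination, 0, 0 and 2 in anti-PD-L1, 4, 6 and 2 in minP1, and 3, 1 and 3 in control. Its pooled level was highest in minP1, at 13.2 CPM (95% counting interval 6.81 to 23.0), against 6.17 CPM (2.48 to 12.7) in control, intervals that overlap. Cd80 exceeded Cd86 in the pooled counts of 3 groups, with 10 against 3 in the combination, 15 against 2 in anti-PD-L1 and 36 against 7 in control. In minP1 it was 10 against 12.

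Pdcd1, the gene for PD-1 (chromosome 1, 94038305 to 94052553, minus strand), was near the limit of detection. It had 2 counts in anti-PD-L1 replicate 2, 1 in minP1 replicate 2, and none in the other 10 libraries. In the combination, 0 of 506616 counts allows up to 5.92 CPM. Cd274, the target of the antibody (chromosome 19, 29367455 to 29388095, plus strand), had 4, 2 and 3 counts in the combination, 2, 5 and 1 in anti-PD-L1, 1, 1 and 3 in minP1, and 0, 1 and 7 in control. Its pooled level was 17.8 CPM in the combination (8.12 to 33.7) and 7.05 CPM in control (3.04 to 13.9), 2.52 times the control level, with counting limits of 0.863 and 7.50 that include equality. Every combination library of Cd274 lay above every minP1 library, as for 16.8% of the genes that passed the filter. The pooled ratio to minP1 was 3.24, with counting limits of 0.974 and 12.3. As for Ctla4 and Tnfrsf9, control replicate 3 held most of the Cd274 counts of its group.

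OX40 and GITR lie side by side on chromosome 4, Tnfrsf4 at 156013843 to 156016612 and Tnfrsf18 at 156026164 to 156028895, both on the plus strand and 9552 bases apart. Tnfrsf4 had 3, 0 and 1 counts in the combination, 2, 0 and 4 in anti-PD-L1, 3, 0 and 2 in minP1, and 0, 4 and 0 in control, with every group overlapping every other. Tnfrsf18 had 2, 1 and 0 counts in the combination, 2, 1 and 5 in anti-PD-L1, none in minP1, and 0, 0 and 2 in control. Its pooled level was 10.0 CPM in anti-PD-L1 (4.32 to 19.7) and 1.76 CPM in control (0.214 to 6.37), 5.67 times the control level, with wide counting limits of 1.13 and 54.8. That difference did not pass in a fit without the filter (2.34 ± 1.16, adjusted p = 0.569, edgeR).

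Tested without a filter on low counts, over all 19921 symbols, 0 of the 10 genes passed in either single treatment against control (edgeR), where 0.256% of all symbols were called in minP1 and 0.838% in anti-PD-L1. At an unadjusted p under 0.05 there were 2 members in anti-PD-L1, against 8.21% of all symbols, and 3 in minP1, against 4.11% (edgeR), and DESeq2 called 0 of the members to which it gave an adjusted p. The smallest adjusted p was 0.0732, for Ctla4 in anti-PD-L1 (1.66 ± 0.50). With a minimum of 5 counts over the 12 libraries, Ctla4 was called in that comparison (1.69 ± 0.50, adjusted p = 0.0459, edgeR), and without control replicate 3 as well (3.16 ± 0.72, adjusted p = 0.00441, edgeR). No member was called in it, without a filter, when control replicate 1 or 2 was left out.

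As a share of the counts of the 10 genes, which does not depend on library scaling, Ctla4 took 47.8% in the combination (65 of 136; 39.6% to 56.1%), 31.7% in anti-PD-L1 (33 of 104; 23.6% to 41.2%), 27.5% in minP1 (25 of 91; 19.4% to 37.4%) and 16.2% in control (16 of 99; 10.2% to 24.6%). In single control libraries the share was 5.26%, 7.69% and 24.1%, and in the combination 44.2%, 45.9% and 51.8%. The Tnfrsf9 share was much flatter, at 26.5% in the combination, 24.0% in anti-PD-L1, 30.8% in minP1 and 23.2% in control. These shares follow in part from the choice of Ctla4 for its level in the combination.

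These receptors are known from T cells, so T cell markers were read beside them. The 12 markers in the tables, of 15 listed, summed to 124 to 206 CPM in the combination, 92.3 to 192 in anti-PD-L1, 72.2 to 139 in minP1 and 52.5 to 61.1 in control. Most of that was Thy1, with 191 of the counts, and Thy1 is not confined to T cells. Defining markers were sparse: over the 12 libraries Cd3e had 13 counts, Cd4 10, Cd8a 7 and Foxp3 4. Foxp3 had 0 in the combination, 0 in anti-PD-L1, 2 in minP1 and 2 in control. In the same group order Cd3e had 6, 4, 2 and 1, Cd4 6, 2, 2 and 0, and Cd8a 1, 0, 2 and 4. The 4 CD3 subunit genes together had 12 counts in the combination, 12 in anti-PD-L1, 6 in minP1 and 9 in control, against 65, 33, 25 and 16 for Ctla4 in the same order. Scaled by depth, the CD3 genes stood at 23.7 CPM in the combination (12.2 to 41.4), 15 in anti-PD-L1 (7.75 to 26.2), 6.59 in minP1 (2.42 to 14.3) and 7.94 in control (3.63 to 15.1), so they too were highest in the combination, with intervals that overlap. Ctla4 made up 45.1% of the summed counts of Ctla4 and the T cell markers in the combination (37.2% to 53.3%), 26.0% in anti-PD-L1 (19.1% to 34.2%), 22.3% in minP1 (15.6% to 30.9%) and 18.8% in control (11.9% to 28.4%). Without control replicate 3 the control share was 7.14% (3 of 42; 2.46% to 19.0%). Without Thy1 in the list the shares were 67.01% in the combination, 46.5% in anti-PD-L1, 42.4% in minP1 and 32% in control. All these shares follow in part from the choice of Ctla4 for its level in the combination, and are given as a description. In these mixed cells, more cells of a type and more RNA per cell cannot be told apart.

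**Figure D4:**
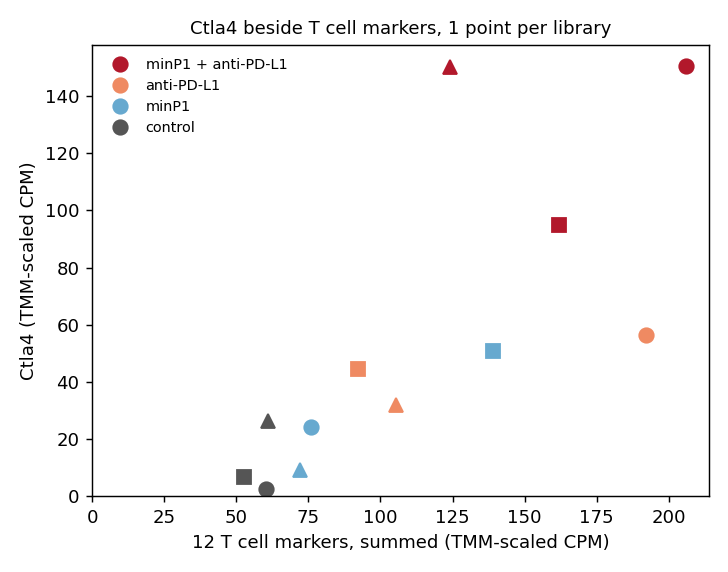
Ctla4 (y axis) against the summed level of 12 T cell markers (x axis), both in TMM-scaled CPM, with 1 point per library, colour for group and the symbol for replicate as in the plot of levels. The 3 combination libraries lie at 124 to 206 CPM of markers and 94.9 to 151 CPM of Ctla4, and anti-PD-L1 replicate 1, at 192 CPM of markers, has 56.5 CPM of Ctla4.

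Summed marker levels of other cell types are given beside these values, and were not tested as lists. The regulatory T cell list (9 of 10 in the tables) summed to 72.6 to 104 CPM in the combination, 58.1 to 113 in anti-PD-L1, 94.9 to 153 in minP1 and 130 to 151 in control. Capg, which myeloid cells also express, gave 266 of its counts, and Il2ra 21. By group, Capg held 16 of the 45 list counts in the combination and 130 of 161 in control, so the lower sum in the combination rests on Capg. Macrophage markers (10 of 10) summed to 1737 to 3852 CPM in the combination, 821 to 1407 in anti-PD-L1, 709 to 1055 in minP1 and 854 to 1028 in control, led by Apoe, C1qa and C1qc, while the defining receptor Csf1r had a pooled level of 13.8 CPM in the combination (5.55 to 28.5) and 12.3 in control (6.75 to 20.7). Apoe held 557 of the 1248 list counts in the combination and 183 of 1086 in control. The members did not move together. In pooled totals of 506616 counts in the combination and 1134230 in control, Mrc1 had 199 and 214, and C1qb 24 and 80. Neutrophil markers (9 of 10) summed to 564 to 634 CPM in the combination, 220 to 291 in anti-PD-L1, 224 to 295 in minP1 and 292 to 355 in control, although Cxcr2, the defining receptor, was lower in the pooled counts, at 113 CPM in the combination (85.2 to 146) and 259 in control (230.4 to 291). Dendritic markers (9 of 10) summed to 123 to 190 CPM in the combination, 96.0 to 123 in anti-PD-L1, 78.2 to 120.5 in minP1 and 82.1 to 116 in control, mostly Fscn1, with Flt3 at a pooled 9.87 CPM in the combination (3.21 to 23.0) and 7.05 in control (3.04 to 13.9). B cell markers (5 of 8) summed to 57.0 to 72.6 CPM in the combination, 22.4 to 67.8 in anti-PD-L1, 20.7 to 98.2 in minP1 and 16.4 to 24.5 in control, led by Pax5. NK cell markers (9 of 11) summed to 44.7 to 98.4, 47.8 to 89.5, 71.1 to 129 and 28.9 to 91.7 CPM in the same group order, led by Gzma, with the NK receptor Ncr1 at 4 counts in all. Epithelial markers (4 of 7) stayed at 0 to 55.9, 5.65 to 9.58, 0 to 6.89 and 3.28 to 14.3 CPM. The part of these cells in the levels of Ctla4 and Tnfrsf9 was not tested.

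Genes around the 10 members were read from 3 lists of other costimulatory receptors, ligands and signalling proteins, 87 genes of which 78 are in the tables and 18 passed the filter. The lists were made with earlier results of these data known, so calls among them, with their p-values, are given as a description. No gene of these lists was called in minP1 or in anti-PD-L1 against control, or in the combination against anti-PD-L1, where 6.94% of all genes tested were. In the combination against control 2 rose and 3 fell, 27.8% of the 18, against 34.8% of all genes tested, and the median log2 fold change was 0.24 against -0.06 over all genes. Traf6, which is among those that rose, passed the filter through its combination libraries. Against minP1, 0 rose and 2 fell (11.1%, against 20.0% of all genes). With 18 genes tested, these shares are not read as a difference from all genes. Leaving out 1 replicate at a time gave 4 to 8 called genes against control and 1 to 4 against minP1. The other 60 genes had 1 to 88 counts each in the 12 libraries and were not tested.

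The called genes include proteins that handle or relay these receptors. Ap2m1, a subunit of the clathrin adaptor that internalises CTLA-4, fell to 37.9 ± 14.8 CPM in the combination, against 96.3 ± 17.9 in control (-1.35 ± 0.36, adjusted p = 0.00621, edgeR), and was also lower than in minP1 (-1.09 ± 0.37, adjusted p = 0.0414). Ppp2ca, the catalytic subunit of the phosphatase PP2A, rose to 239 ± 69 CPM in the combination, against 139 ± 13 in control (0.72 ± 0.26, adjusted p = 0.033, edgeR). Traf6, a signalling adaptor of the family that serves tumour necrosis factor receptors, was higher by 1.40 ± 0.47, at 59.3 ± 24.9 CPM in the combination and 20.5 ± 7.7 in control. It averaged 26.3 CPM in anti-PD-L1 and 26.5 in minP1, below the 34.8 CPM that 3 libraries had to reach. Traf6 thus passed the filter on low counts through its combination libraries, so no p-value is given for it.

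Nfkb2, a subunit of the NF-kB pathway that 4-1BB and OX40 can activate, had 2 pooled counts in the combination and 35 in control, which is 0.128 times the control level (95% counting limits 0.0149 and 0.498, adjusted p = 0.0105, edgeR). Against the 35 counts of minP1 the pooled level was 0.103 times as high (0.012 to 0.4; adjusted p = 0.00737, edgeR). Lgals3, the glycan-binding protein galectin-3, fell to 128 ± 44 CPM in the combination, against 325 ± 95 in control (-1.36 ± 0.34, adjusted p = 0.00363, edgeR). All 5 genes, named because they were called, had no overlap between combination and control. Among all genes tested, 21.2% had no overlap with the combination higher and 24.7% with it lower. In that comparison none of the lists' genes was called with the Bc1 and Lrrc17 covariate, and 3 were at equal depth. Also read against minP1 were Lgals3 (-0.93 ± 0.35, adjusted p = 0.0578, edgeR), which did not pass, and Traf6 (1.10 ± 0.47). Against anti-PD-L1 the smallest p-values were those of Nfkb2, with 2 counts in the combination, the NF-kB adaptor Bcl10 (-1.10 ± 0.43), Lgals3 (-0.85 ± 0.35) and Traf6 (1.09 ± 0.48), none of which passed. Leaving Traf6 aside, their adjusted p-values were 0.065 to 0.141 (edgeR).

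In the single treatments the smallest p-values belonged to genes that did not pass. In anti-PD-L1 against control they were Ap2m1 (-0.56 ± 0.30), the CD226 and TIGIT ligand Pvr (0.78 ± 0.44), Ppp2ca (0.43 ± 0.25) and Lgals3 (-0.52 ± 0.31), with adjusted p-values of 0.34 to 0.389 (edgeR). In minP1 they were the NF-kB subunit Rela (0.85 ± 0.34), Pvr (0.70 ± 0.43), Lgals3 (-0.43 ± 0.30) and the tumour necrosis factor receptor Tnfrsf1b (0.41 ± 0.30), with adjusted p-values of 0.607 to 0.819 (edgeR).

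Other ligands of the members lay below the low-count filter, and no test of them is given. They are named here after their values were seen. Tnfsf9, the ligand of 4-1BB, had a pooled level of 15.8 CPM in the combination (95% counting interval 6.82 to 31.1), 30.0 in anti-PD-L1 (19.2 to 44.7), 13.2 in minP1 (6.81 to 23.0) and 19.4 in control (12.2 to 29.4). Its highest pooled value was thus in anti-PD-L1, but the intervals all overlap, so no order of the groups is read from them. Pdcd1lg2, the second ligand of PD-1, stood at 11.8 CPM in the combination (4.35 to 25.8; 6 counts), 7.50 in anti-PD-L1 (6 counts), 1.10 in minP1 (1 count) and 2.65 in control (3 counts; 0.545 to 7.73). Icosl, the ligand of ICOS, had 4, 2, 0 and 0 counts in the same order.

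Across the 12 libraries, the genes whose log2 level was most like that of Ctla4 were the complement gene C4b (Pearson r = 0.964), the nuclear exporter Xpo6 (0.961), the histone demethylase Kdm6b (0.953), the kinase Csnk1a1 (0.942) and the death receptor Fas (0.938). Kdm6b averaged 317 CPM in the combination, 106 in anti-PD-L1, 77.9 in minP1 and 47.1 in control, and Fas 151, 45.4, 29.5 and 12.9 CPM in the same order. C4b has a near-identical neighbour gene, so its counts are uncertain. For Tnfrsf9 the 5 were the inhibitory receptor Cd300a (r = 0.950), the urokinase receptor Plaur (0.938), the receptor Cd300lf (0.937), the kinase Mapk3 (0.933) and Prune1 (0.931). Cd300a averaged 76.3 CPM in the combination, 11.4 in anti-PD-L1, 10.1 in minP1 and 4.91 in control. Like Tnfrsf9, it passed the filter on low counts through its combination libraries, so its correlation is tied to that selection. Plaur averaged 467 CPM in the combination, 215 in anti-PD-L1, 193 in minP1 and 118 in control. Ctla4 and Tnfrsf9 correlated with each other at r = 0.841, which ranked Tnfrsf9 at place 146 of 5442 genes for Ctla4. The libraries share their treatment groups, depth and composition, so these values describe likeness over the 4 groups and carry no test.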

How the data were processed

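The deposited values are raw counts per gene symbol, 1 table per sample, which the authors did not normalize. The build mm10 and the tools R 3.6.1, Bowtie2 2.2.5 and DESeq2 are named per the submitters' processing notes, without their roles. The sources used here do not state the counting tool, annotation, use of strand or treatment of reads with several matches. Ctla4 spans a ribosomal protein pseudogene, Rpl18-ps1, which overlaps none of its exons, Tnfrsf9 overlaps Camta1 on the other strand, and Tnfrsf18 and Cd274 overlap antisense genes, so their counts are uncertain to that extent. Rpl18 averaged 1953 CPM in the combination and 1672 in control.

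Genes were kept by filterByExpr (5443 of 19921), scaled by TMM and tested with edgeR 4.0.16 (R 4.3.3) by the quasi-likelihood test on all 12 samples with 1 mean per group, with Benjamini-Hochberg adjustment over all genes tested and a threshold of 0.05. The script was tested on simulated data. CPM are counts over the library total times its TMM factor, and pooled CPM are summed counts over summed totals. Counting intervals are exact 95% Poisson or binomial intervals, shares have Wilson intervals, and the floor for 0 counts is 3 counts. All cover counting error only and not the spread between mice. No molecular identifiers are recorded, so copies of 1 molecule may have been counted more than once. An exact permutation test of 3 against 3 cannot go below p = 0.1 and was not used. Each sample came from a separate mouse, per the labels.

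The members and gene lists were chosen with earlier results of these data known. Named genes of the 3 lists are those that passed, up to 8 per comparison, or the 4 with the smallest p where fewer than 4 passed, and like genes are the 5 highest Pearson correlations of log2 CPM (prior count 2) per gene. Alternatives were DESeq2 1.42.0 and its size factors, no filter, equal depth, the replicate block, a Bc1 and Lrrc17 covariate, and each replicate left out. The labels do not say that replicate numbers pair the samples, so the main fit had no block. Same-numbered libraries correlated over 0.1 in their deviations in 9 of 18 pairs. Differently numbered pairs were not compared, so these values cannot decide the question. GENCODE M21 (GRCm38) gave positions.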

Additional observations from a re-analysis of the deposited data

How the results depend on the processing

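Over 248 alternative values for 19 results, 225 kept their direction and side of the threshold or stayed close, and the fold changes of Ctla4 and Tnfrsf9 kept their sign in 157 of 158. Leaving out each replicate gave log2 ranges for Ctla4 of 2.82 to 4.72 in the combination against control, 1.2 to 3.13 in anti-PD-L1 against control (adjusted p = 0.0314 by edgeR without control replicate 3), 1.82 to 3.0 in the combination against minP1, and -0.92 to 1.35 for the interaction, which turned negative without control replicate 3. For Tnfrsf9 the ranges were 1.69 to 2.24 in the combination against control and 0.14 to 0.83 for the interaction. Members called without a filter in anti-PD-L1 ranged from 0 to 1, and 1 was called with a minimum of 5 counts. Called genes of the 3 lists ranged from 4 to 8 in the combination against control, 0 to 2 against anti-PD-L1 (2 without anti-PD-L1 replicate 1) and 1 to 4 against minP1 (4 without minP1 replicate 2). In the combination against control the lists had 3 at equal depth and 0 with the Bc1 and Lrrc17 covariate. Against minP1 they had 1 with DESeq2, 4 with no filter, 0 at equal depth and 1 with the covariate. Leaving out minP1 replicate 2 and anti-PD-L1 replicate 1, chosen after seeing the data, gave 3.01 for Ctla4 against minP1, 1.53 for its interaction, and 3 and 5 list genes against anti-PD-L1 and minP1. The causes were not tested. With the replicate block Ctla4 was at 3.24 in the combination and 1.63 in anti-PD-L1 against control. The 18 same-number correlations ran from -0.137 to 0.211, which cannot decide whether the numbers pair the samples, since differently numbered pairs were not compared. Tnfrsf9 fell below the filter at equal depth, and DESeq2 gave no adjusted p for Ctla4 or Tnfrsf9 in anti-PD-L1 against control. Depth limits the other 8 genes, with 3 to 71 counts each.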
